A study of Mus musculus with 20 samples.

Results

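The genes of the BK potassium channel were followed through pregnancy in mouse islets and islet grafts. They were 8 of the 19938 genes measured: Kcnma1 for the pore, Kcnmb1, Kcnmb2 and Kcnmb4 for β subunits, and Lrrc26, Lrrc52, Lrrc55 and Lrrc38 for γ subunits. The genes were taken by name, and each was read through the probe set with 1 gene symbol that had the highest mean over the 20 arrays. All 8 were found, and none was filtered out for a low level. The arrays were Affymetrix MoGene 1.0 ST arrays hybridised with total RNA of C57bl6/J mice. The 6 groups were male islet grafts at P12.5 (n = 3) and NP (n = 3), female islet grafts at P12.5 (n = 3) and NP (n = 3), and islets that had not been transplanted at P12.5 (n = 4) and NP (n = 4). P12.5 stands for day 12.5 of pregnancy and NP for the non-pregnant state. Grafts were donor islets of the named sex under the kidney capsule of female hosts, so that male islets were exposed to pregnancy in a female body. The islets that stayed in the pancreas came from female mice. Hosts were 8 to 12 weeks old and donors about 12 weeks old. All hosts, pregnant or not, had been made diabetic with streptozotocin before transplantation, and the methods describe no such treatment of the mice that kept their islets. The labels mark the islet arrays as a reanalysis of earlier data, so transplantation, streptozotocin and array batch cannot be told apart. Samples are labelled as biological replicates without naming animals, and p-values cover only the spread among them.

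BK channels open when the membrane is depolarised and intracellular calcium rises, and the potassium that leaves the cell through them helps to end the action potential. The pore is built from the product of Kcnma1. In beta cells, where glucose-driven electrical activity opens voltage-gated calcium channels and so triggers insulin release, BK current contributes to repolarisation. The β subunits tune how the pore responds to calcium and how it inactivates. The γ subunits are leucine-rich repeat membrane proteins that shift the voltage at which the pore opens. In the usual numbering Lrrc26 encodes γ1, Lrrc52 γ2, Lrrc55 γ3 and Lrrc38 γ4.

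The promoters of Lrrc55 and Kcnmb2 are shown because Lrrc55 was the member that rose in pregnancy, and because Kcnmb2, which did not, was the member that held the letters of a STAT5 motif. Both are the 250 bases before the start of the gene in RefSeq on mouse build GRCm38.p6, where all 8 members were matched by symbol. Of 3 motifs searched on both strands, the capitals mark TGACG, the half-site of the cAMP response element, in Lrrc55 (chr2:85198751-85199000, minus strand) and TTCNNNGAA, the STAT5 motif, in Kcnmb2 (chr3:31902453-31902702, plus strand).
Lrrc55: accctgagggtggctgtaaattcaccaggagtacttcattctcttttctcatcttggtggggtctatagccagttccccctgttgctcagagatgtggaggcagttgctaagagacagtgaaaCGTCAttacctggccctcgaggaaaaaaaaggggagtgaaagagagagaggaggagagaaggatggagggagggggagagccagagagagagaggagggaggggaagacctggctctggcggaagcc
Kcnmb2: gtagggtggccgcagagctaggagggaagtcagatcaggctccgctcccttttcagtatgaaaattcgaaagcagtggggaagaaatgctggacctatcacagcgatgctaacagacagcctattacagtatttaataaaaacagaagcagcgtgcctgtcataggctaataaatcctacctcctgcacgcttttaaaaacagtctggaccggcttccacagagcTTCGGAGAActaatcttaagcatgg
In Lrrc55 the half-site stood on the opposite strand, and its bases began 127 bases before the start. It was found in no other member and in 17.8% of the 32851 mouse promoters of the same length. STAT5 acts downstream of the prolactin receptor, the receptor of the placental lactogens. Its motif began 25 bases before the start of Kcnmb2, was found in no other member, and stood in 7.02% of all promoters. TATAAA, the letters of the TATA box, was in none of the 8 and in 12.4% of all promoters. Guanine and cytosine made up 54% of the Lrrc55 window and 47.2% of the Kcnmb2 window, against a median of 52.4% over all promoters. Those of Kcnma1 and Kcnmb4 were richer, with 79.2% and 83.6%.

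Across the series, array medians lay between 5.9 and 6.0 on the deposited log2 scale, and replicates of a group correlated at r of 0.971 to 0.989 across probe sets. NP islet array 1 stood apart at the top of the scale: its highest value was 13.4, against 14.4 or more on the other arrays, and its Ins2, Gcg and Sst levels were 10.2, 12.8 and 12.7, against 10.9 or more, 13.8 and 13.5 on the other NP islet arrays. Without it, the pregnancy change in islets was 2.92 for Lrrc55 and -0.03 for Kcnmb2. Markers of the labelled tissue were high in every group: 9 beta cell genes averaged between 10.85 and 11.24, and 8 genes of other islet endocrine cells between 10.27 and 10.75. Grafts also carried RNA of their surroundings. The mean of 28 kidney genes was 7.13 in male P12.5 grafts and 7.02 in male NP grafts, 6.54 in female P12.5 grafts and 7.60 in female NP grafts, and 5.49 in P12.5 islets and 5.52 in NP islets. Fibroblast genes were higher in all 4 graft groups (8.87 to 9.11) than in islets (6.31 and 6.47), whereas acinar genes were lower in the grafts (5.27 to 5.41) than in the islets (9.20 and 9.35). In such tissue samples, fewer cells of a type and less RNA per cell cannot be told apart. As a gauge of low signal, 1027 olfactory receptor genes, which few tissues outside the nose use, had a median level of 4.24 and a 95th percentile of 5.40.

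The auxiliary γ subunits were compared first between P12.5 and NP. Earlier results of these data were known when the members were chosen, and they had marked Lrrc55 as the member most likely to matter. Its p-values below therefore describe the change and are not an independent test of it. Lrrc55, which encodes γ3, rose 11.1-fold in male grafts, 13.9-fold in female grafts and 7.59-fold in islets, and it was the only γ subunit gene called. In male grafts Lrrc55 had log2 levels of 8.7, 9.0 and 8.4 at P12.5, against 5.6, 5.2 and 4.9 at NP. In female grafts its levels were 9.2, 9.2 and 8.7 at P12.5, against 5.4, 5.1 and 5.2 at NP. In islets they were 8.2, 8.6, 8.5 and 8.5 at P12.5, against 5.5, 5.6, 5.5 and 5.5 at NP. Every pregnant sample of each kind lay above every non-pregnant one. The lowest P12.5 array exceeded the highest NP array by 2.8 log2 units in male grafts, 3.3 in female grafts and 2.6 in islets.

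The rise of Lrrc55 was 3.47 ± 0.21 log2 units in male grafts (standard error, n = 3 and 3, 95% confidence interval 3.01 to 3.93, limma adjusted p = 9.74e-05). In female grafts it was 3.80 ± 0.21 (n = 3 and 3, 3.34 to 4.26, adjusted p = 1.92e-05), and in islets 2.93 ± 0.09 (n = 4 and 4, 2.72 to 3.13, adjusted p = 2.71e-06). Among all genes it was the 2nd largest rise in grafts of each sex and the 3rd largest in islets. With both donor sexes together the rise was 3.63 ± 0.15 (n = 6 and 6, adjusted p = 6.89e-07). A two-sided exact permutation test of the Lrrc55 levels alone gave the smallest p it can reach, 0.1 with 3 against 3 arrays in the grafts of each sex and 0.0286 with 4 against 4 in islets. That outcome follows from the lack of overlap given above and adds nothing to it. With the kidney marker level as a covariate, the rise was 3.49 ± 0.19 in male grafts and 3.54 ± 0.24 in female grafts.

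**Figure D1:**
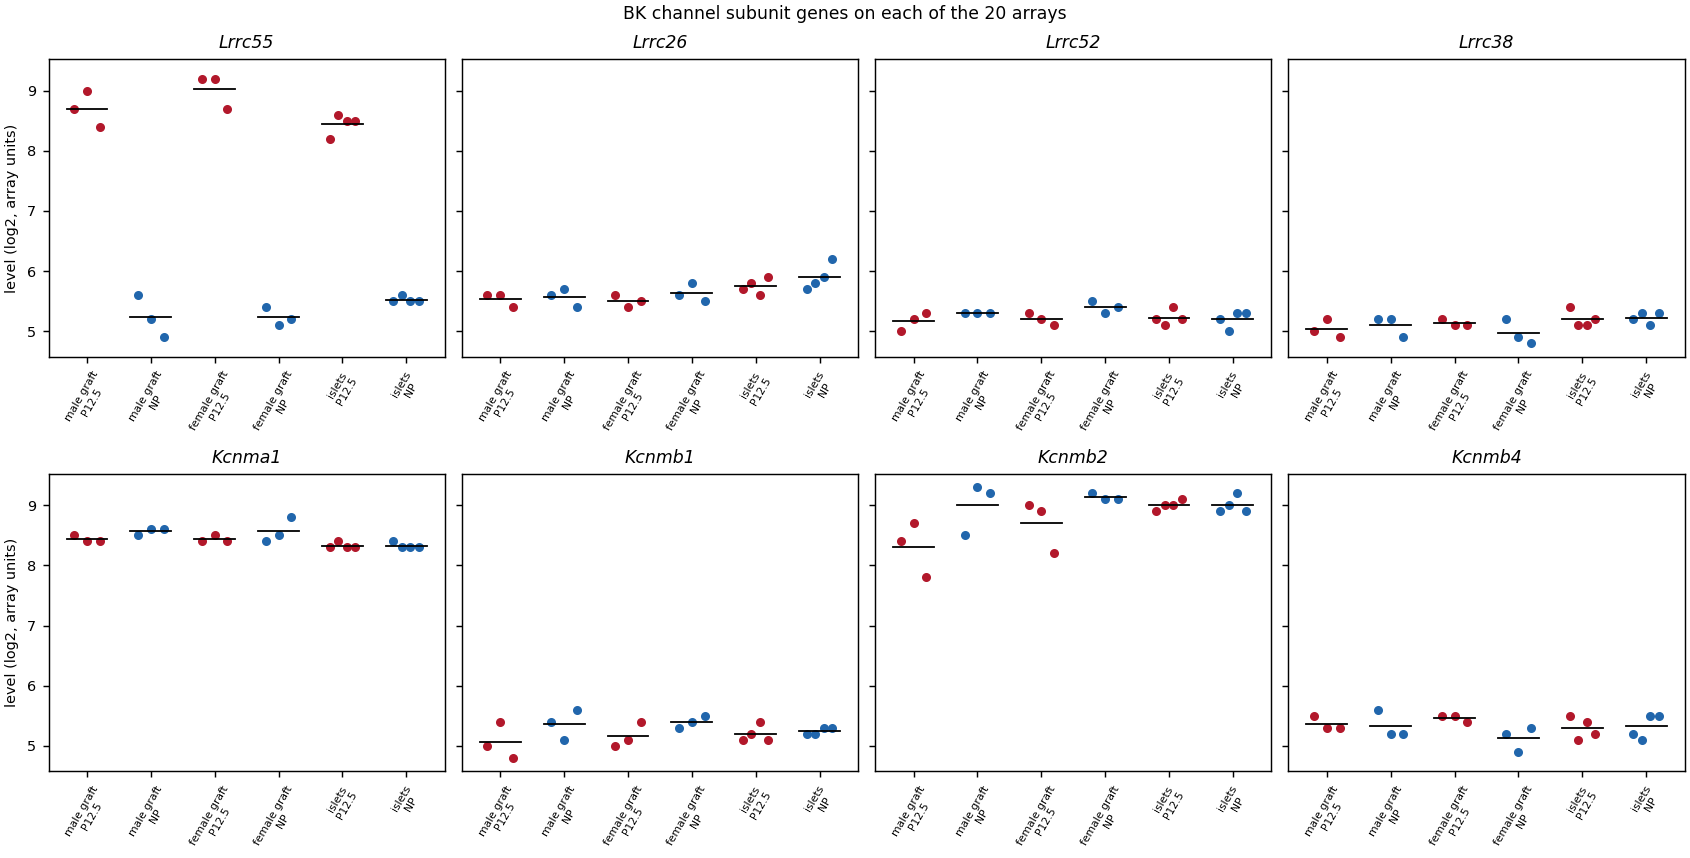
Log2 level (vertical axis, array units) of the 8 BK subunit genes on each of the 20 arrays, by group (horizontal axis), with red points for P12.5, blue points for NP and a line at each group mean. The P12.5 points of Lrrc55 lie at 8.2 or above and its NP points at 5.6 or below. Heights compare groups within a gene and not 1 gene with another, since probe sets differ in sensitivity.

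In the non-pregnant state Lrrc55 was close to the level of genes that give little signal. At P12.5 its mean was 8.70 in male grafts, 9.03 in female grafts and 8.45 in islets, above 92.1% of all genes in male grafts, 94.2% in female grafts and 88.8% in islets. At NP its mean was 5.23 in male grafts, 5.23 in female grafts and 5.53 in islets, above 26.9% of all genes in male grafts, 27.6% in female grafts and 32.9% in islets, and between 94.1% and 95.3% of the olfactory receptor genes were lower. The fold changes are therefore on the scale of the array signal and not of transcript numbers. The 6 group means of Lrrc55 spanned 3.80 log2 units, against a standard deviation within groups of 0.23. That span was above that of 99.8% of genes.

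The other γ subunits stayed near low signal in all groups. Lrrc26 (γ1), known from gland and airway epithelia, ranged from 5.4 to 6.2 over the 20 arrays. Its levels were 5.6, 5.6 and 5.4 in male P12.5 grafts, against 5.6, 5.7 and 5.4 in male NP grafts. In islets they were 5.7, 5.8, 5.6 and 5.9 at P12.5, against 5.7, 5.8, 5.9 and 6.2 at NP. The groups overlapped, and the pregnancy change was -0.03 ± 0.12 in male grafts, -0.13 ± 0.12 in female grafts and -0.15 ± 0.12 in islets (adjusted p = 0.907, 0.571 and 0.709). Lrrc52 (γ2), known in testis as a partner of the sperm potassium channel Slo3, ranged from 5.0 to 5.5. Its change was -0.13 ± 0.11 in male grafts, -0.20 ± 0.11 in female grafts and 0.03 ± 0.10 in islets (adjusted p = 0.519, 0.310 and 0.944). Lrrc38 (γ4), described in brain and muscle among other tissues, ranged from 4.8 to 5.4. It changed by -0.07 ± 0.13 in male grafts, 0.17 ± 0.13 in female grafts and -0.03 ± 0.09 in islets (adjusted p = 0.816, 0.518 and 0.944). At these levels a change below the detection of the probe sets could not be seen.

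For the pore itself the question was whether it moved with its γ3 partner. Kcnma1 had levels of 8.5, 8.4 and 8.4 in male P12.5 grafts, against 8.5, 8.6 and 8.6 in male NP grafts. In female grafts they were 8.4, 8.5 and 8.4 at P12.5, against 8.4, 8.5 and 8.8 at NP. In islets they were 8.3, 8.4, 8.3 and 8.3 at P12.5, against 8.4, 8.3, 8.3 and 8.3 at NP. The states overlapped in each kind of sample. The change was -0.13 ± 0.11 in grafts of each sex (95% confidence interval -0.38 to 0.11 in both, adjusted p = 0.541 in male and 0.537 in female grafts) and 0.00 ± 0.06 in islets (-0.14 to 0.14, adjusted p = 1). The upper limits of these intervals were 0.11 and 0.14, whereas the lower limits of the Lrrc55 change were 2.72 or more. All 6 group means of Kcnma1 lay within 0.24 log2 units.

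A second probe set annotated to Kcnma1 gave another picture. It shared 0 of its 4 annotated transcript sequences with the 20 of the first and read near low signal, with group means between 4.70 and 5.40. In male grafts its levels were 5.6, 5.4 and 5.2 at P12.5, against 4.7, 4.8 and 4.6 at NP, a rise of 0.70 ± 0.13 (adjusted p = 0.0337). Its change was 0.20 ± 0.13 in female grafts (adjusted p = 0.411) and -0.13 ± 0.20 in islets (adjusted p = 0.879). With both donor sexes it was 0.45 ± 0.09 (limma adjusted p = 0.0134), below 1.5-fold. The difference between male and female grafts in this change was 0.50 ± 0.18 and did not pass the adjustment (adjusted p = 0.955). The direction for Kcnma1 in grafts thus depended on the probe set. Which transcripts the second probe set reads was not tested.

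Of the β subunits, Kcnmb2, which encodes β2, a subunit whose N-terminal end can close the pore and so inactivate the current, was read well above low signal, between 7.8 and 9.3. In male grafts its levels were 8.4, 8.7 and 7.8 at P12.5, against 8.5, 9.3 and 9.2 at NP. In female grafts they were 9.0, 8.9 and 8.2 at P12.5, against 9.2, 9.1 and 9.1 at NP. In islets they were 8.9, 9.0, 9.0 and 9.1 at P12.5, against 8.9, 9.0, 9.2 and 8.9 at NP. The female graft groups did not overlap, the male graft groups overlapped through NP array 1, and the islet groups overlapped throughout.

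For Kcnmb2 the difference was -0.70 ± 0.28 in male grafts (-1.31 to -0.09, limma adjusted p = 0.198, n = 3 and 3) and -0.43 ± 0.28 in female grafts (-1.04 to 0.17, adjusted p = 0.400). With both donor sexes it was -0.57 ± 0.20 (-0.995 to -0.14, adjusted p = 0.0764, n = 6 and 6). Without male NP array 1, the array through which the male groups overlapped, it was -0.69 with a limma adjusted p of 0.0337. Across 22 alternatives the difference with both donor sexes ranged from -0.69 to -0.31, and 21 of them left it uncalled. In islets it was 0.00 ± 0.09 (-0.20 to 0.20, adjusted p = 1). The difference between female grafts and islets in this change was -0.43 ± 0.30 (adjusted p = 0.547).

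The Kcnmb2 levels of the grafts were set beside markers of islet endocrine cells. The mean of 17 islet endocrine markers, 9 of beta cells and 8 of other endocrine cells, was 10.68, 10.78 and 10.27 in male P12.5 grafts, against 10.59, 10.81 and 10.79 in male NP grafts. In female grafts it was 10.84, 10.88 and 10.55 at P12.5, against 10.80, 10.83 and 10.91 at NP. Array 3 of each P12.5 graft group was the lowest of its group in Kcnmb2 and in this marker mean, and the highest in fibroblast genes (10.3 in the male and 9.62 in the female array). With the marker mean as a covariate, a fit chosen after the data were seen, the Kcnmb2 difference was -0.38 ± 0.14 in male grafts, -0.25 ± 0.13 in female grafts and -0.31 ± 0.10 with both sexes (adjusted p = 0.191, 0.295 and 0.069). With the kidney marker mean as a covariate it was -0.70 ± 0.29 in male grafts, -0.41 ± 0.36 in female grafts and -0.56 ± 0.23 with both sexes (adjusted p = 0.221, 0.735 and 0.163). In the fit with the endocrine marker mean, Lrrc55 rose by 3.58 ± 0.21 in male grafts and 3.86 ± 0.20 in female grafts. The marker mean is not a measure of islet content alone. Of its genes, Slc30a8, which encodes the zinc transporter of insulin granules, and the peptide hormone gene Pyy themselves fell in grafts of both sexes (-0.65 ± 0.15 and -0.85 ± 0.16, adjusted p = 0.0184 and 0.0111), while the insulin gene Ins2 differed by -0.05 ± 0.06 and the glucagon gene Gcg by -0.15 ± 0.08 (adjusted p = 0.624 and 0.225). Other genes of the list went up. The beta cell gene Mafa rose by 1.00 ± 0.21 in female grafts (limma adjusted p = 0.0385), and averaged 8.63 at P12.5 and 8.50 at NP in male grafts. G6pc2 averaged 12.53 at P12.5 and 12.17 at NP in male grafts, and 12.73 and 12.37 in female grafts. The part of islet content in the Kcnmb2 difference was not tested.

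**Figure D2:**
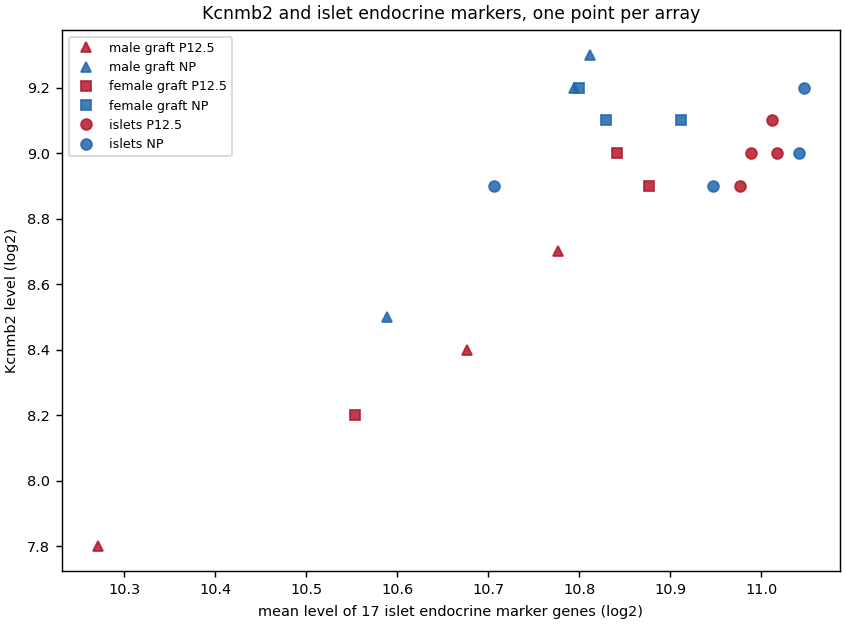
Log2 level of Kcnmb2 (vertical axis) against the mean log2 level of 17 islet endocrine marker genes (horizontal axis), 1 point per array, with triangles for male grafts, squares for female grafts and circles for islets, red for P12.5 and blue for NP. The array with the lowest marker mean, a male P12.5 graft at 10.27, also has the lowest Kcnmb2 level, 7.8.

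Kcnmb1 and Kcnmb4 were near low signal. Kcnmb1 encodes β1, the subunit typical of smooth muscle. Its levels were 5.0, 5.4 and 4.8 in male P12.5 grafts, against 5.4, 5.1 and 5.6 in male NP grafts, and the groups overlapped. It changed by -0.30 ± 0.18 in male grafts, -0.23 ± 0.18 in female grafts and -0.05 ± 0.08 in islets (adjusted p = 0.371, 0.486 and 0.885). The mean of 13 smooth muscle and pericyte genes was 7.09 in male P12.5 grafts and 6.82 in male NP grafts, 6.87 and 6.86 in female P12.5 and NP grafts, and 6.55 and 6.54 in P12.5 and NP islets. Kcnmb4 encodes β4, the subunit typical of neurons. In female grafts its levels were 5.5, 5.5 and 5.4 at P12.5, against 5.2, 4.9 and 5.3 at NP. Those groups did not overlap, but the difference of 0.33 ± 0.14 did not pass the adjustment (limma adjusted p = 0.201, n = 3 and 3). It was 0.03 ± 0.14 in male grafts and -0.03 ± 0.12 in islets (adjusted p = 0.911 and 0.948). The mean of 6 nerve and Schwann cell genes was 5.58 in female P12.5 grafts and 5.55 in female NP grafts.

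Counted over the 8 members, a call needed an adjusted p under 0.05 and a change of at least 1.5-fold. In male grafts 1 member was called, where 0.757% of all genes were called. In female grafts it was 1 of 8, with 1.17% of all genes called, and in islets 1 of 8, with 0.998% called. With both donor sexes 1 was called, against 1.88% of all genes. The member called was Lrrc55 each time, and it rose. At an unadjusted p under 0.05 there were 2 of 8 in male grafts (18.4% of all genes), 2 in female grafts (19.3%), 3 with both sexes (30%) and 1 in islets (13.3%). The levels of P12.5 and NP did not overlap for 1 member in male grafts (17.9% of all genes), 3 in female grafts (20.1%), 1 with both sexes (4.04%) and 1 in islets (7.02%). The median change of the 8 members was -0.10 in male grafts, -0.13 in female grafts and -0.01 in islets, beside medians over all genes of 0.00, 0.03 and 0.00. Besides Lrrc55, the largest difference in size was 0.70 in male grafts and 0.43 in female grafts, each time that of Kcnmb2, and 0.15 in islets, that of Lrrc26.

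**Figure D3:**
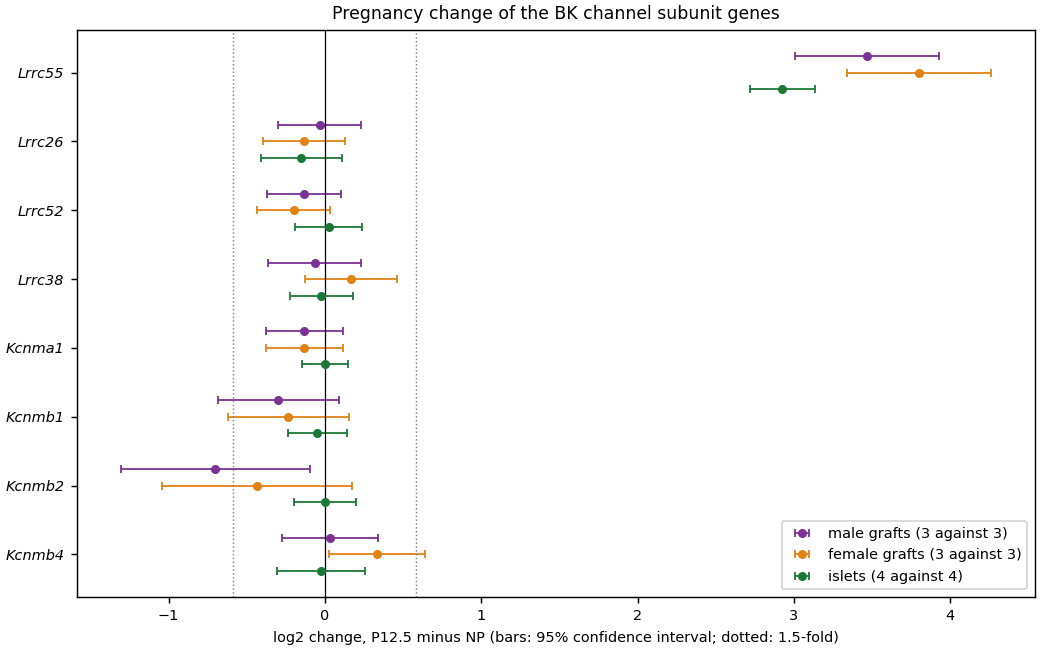
Pregnancy change of the 8 BK subunit genes (log2, P12.5 minus NP, horizontal axis) in male grafts (purple), female grafts (orange) and islets (green), with 95% confidence intervals from limma and dotted lines at a 1.5-fold change. The intervals of Lrrc55 start at 2.72 or above, and of the other intervals only those of Kcnmb2 in male grafts and Kcnmb4 in female grafts leave out 0.

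Donor sex was compared within each state of the host. Lrrc55 at P12.5 was 8.70 in male grafts and 9.03 in female grafts, and the levels overlapped (-0.33 ± 0.21, 95% confidence interval -0.79 to 0.13, adjusted p = 0.977). At NP both means were 5.23 (0.00 ± 0.21, -0.46 to 0.46, adjusted p = 1). The difference between male and female grafts in the pregnancy change of Lrrc55 was -0.33 ± 0.30 (-0.98 to 0.32, adjusted p = 0.975), so a difference of up to about 1 log2 unit lay within the interval. None of the 8 members passed in male against female grafts at P12.5, where 0.015% of all genes were called, nor at NP, where 0.0201% were called. None of them had an unadjusted p under 0.05 in either state, where 2.2% and 4.2% of all genes had one. The sexes overlapped for all 8 members at P12.5 and at NP, where 4.42% and 5.08% of all genes did not overlap. The largest of the other differences was that of Kcnmb2 at P12.5, 8.30 in male and 8.70 in female grafts (-0.40 ± 0.28, -1.01 to 0.21, adjusted p = 0.977). For the interaction of donor sex with pregnancy, 0 members and 0% of all genes were called, and 0 members, against 3.4% of all genes, had an unadjusted p under 0.05.

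Female grafts were set against female islets in each state. At P12.5 Lrrc55 was 9.03 in grafts and 8.45 in islets, and at NP it was 5.23 in grafts and 5.53 in islets. The P12.5 difference was 0.58 ± 0.17 (0.23 to 0.93, adjusted p = 0.0435), just under the 1.5-fold minimum, and the groups did not overlap. At NP the difference was -0.29 ± 0.17 (-0.64 to 0.06, adjusted p = 0.200), and these groups did not overlap either. Lrrc55 was the 1 member without overlap in each state, where 20.6% of all genes at P12.5 and 31.4% at NP did not overlap. The exact permutation p was 0.0286 in each state, the smallest that 3 against 4 arrays allow. The pregnancy change of Lrrc55 in female grafts exceeded that in islets by 0.88 ± 0.24 (0.38 to 1.37, limma adjusted p = 0.148, n = 3 and 4 per state). This difference did not pass the adjustment. The alternative processings gave 0.78 to 0.88, and leaving out 1 array gave 0.79 to 1.04. It includes the NP difference of -0.29, which lies between readings near low signal (5.23 in NP grafts and 5.53 in NP islets, against the 5.40 at the 95th percentile of olfactory receptor genes), while the P12.5 part is 0.58.

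None of the 8 members was called in female grafts against islets at P12.5 or NP, where 4.65% and 8.68% of all genes were. None was called for the difference in pregnancy change, where 0.01% of genes were. Unadjusted p-values under 0.05 were found for 1 member at P12.5, 3 at NP and 1 for the difference in pregnancy change, against 24.7%, 42.8% and 12.6% of all genes. The pore gene Kcnma1 had an NP mean of 8.57 in female grafts and 8.33 in islets, a difference of 0.24 ± 0.09 (adjusted p = 0.0439) that was below 1.5-fold, and its second probe set gave -0.30 ± 0.18 (adjusted p = 0.211). Lrrc26 was 5.63 in NP grafts and 5.9 in NP islets (-0.27 ± 0.12, adjusted p = 0.103), and Lrrc38 was 4.97 in NP grafts and 5.23 in NP islets (-0.26 ± 0.11, adjusted p = 0.0966). Kcnmb2 was 8.70 in grafts and 9.0 in islets at P12.5 (-0.30 ± 0.21, adjusted p = 0.416).

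The BK genes were then placed among 136 other measured channel genes, of 148 listed from textbook knowledge. These cover relatives and partners of the BK pore, listed together with the Lrrc8 subunits of the volume-regulated anion channel. They also cover small and intermediate conductance calcium-activated channels, KATP and inward rectifier channels, voltage-gated potassium channels and two-pore potassium channels. The rest are voltage-gated calcium and sodium channels and calcium release channels. In pregnancy 1 of the 136 rose in male grafts and 1 in female grafts, 2 rose in islets, and 0 fell in any of the 3. That is 0.735%, 0.735% and 1.47% of them, near the shares of all genes given above. Their median change was 0.07 in male grafts, 0.07 in female grafts and -0.01 in islets.

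Kcnk10, which encodes the two-pore background potassium channel TREK-2, was the channel gene outside the BK members that rose in all of these comparisons. Its levels were 6.6, 6.4 and 6.3 in male P12.5 grafts, against 5.3, 5.4 and 5.4 in male NP grafts. In female grafts they were 6.3, 6.4 and 6.4 at P12.5, against 5.2, 5.3 and 5.4 at NP, and in islets 6.6, 6.7, 6.5 and 6.4 at P12.5, against 5.6, 5.6, 5.8 and 5.8 at NP. All P12.5 arrays were above all NP arrays. The rise was 1.07 ± 0.11 in grafts of each sex (adjusted p = 0.00241 in male and 0.00201 in female grafts) and 0.85 ± 0.09 in islets (adjusted p = 0.00237). Lrrc8c, a leucine-rich repeat subunit of the volume-regulated anion channel, rose in islets, with levels of 7.7, 8.2, 8.4 and 7.9 at P12.5 against 6.8, 7.2, 7.2 and 6.9 at NP (1.03 ± 0.16, adjusted p = 0.0160). The Lrrc8c difference was 0.83 ± 0.20 in female grafts (adjusted p = 0.0606) and 0.27 ± 0.20 in male grafts (adjusted p = 0.495). Its pregnancy change in male grafts minus that in female grafts was -0.57 ± 0.29 (adjusted p = 0.955), and in female grafts minus islets -0.19 ± 0.27 (adjusted p = 0.799), so neither difference passed.

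**Figure D4:**
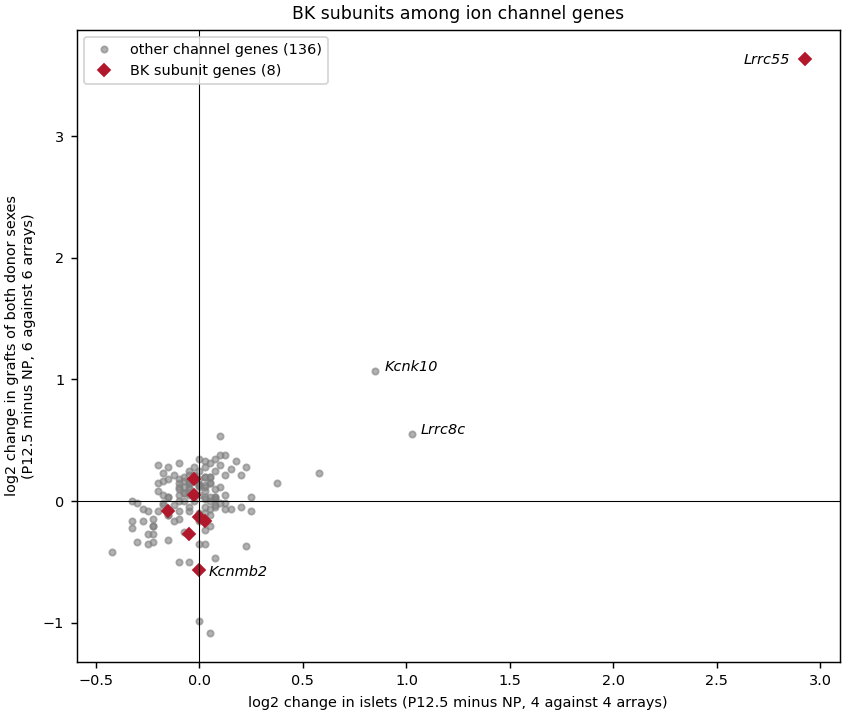
Pregnancy change (log2, P12.5 minus NP) in grafts of both donor sexes (vertical axis) against that in islets (horizontal axis) for the 8 BK subunit genes (red diamonds) and 136 other channel genes (grey points). Lrrc55 lies at 2.93 in islets and 3.63 in grafts, and the next highest gene in grafts is Kcnk10 at 1.07.

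None of the 4 small and intermediate conductance calcium-activated channel genes, 16 KATP and inward rectifier genes, 46 voltage-gated potassium channel genes and 24 voltage-gated calcium channel genes was called in islets or in grafts of both sexes. In female grafts against islets 3 of the 136 were higher and 2 lower at P12.5 (3.68%), and 8 were higher and 3 lower at NP (8.09%). The largest NP differences were those of the inward rectifier genes Kcnj16 (2.78 ± 0.45), Kcnj1 (2.11 ± 0.35) and Kcnj15 (2.02 ± 0.39), with adjusted p of 0.000407, 0.000444 and 0.00140. All of these are also known from kidney tubules, and the kidney marker mean was 7.60 in female NP grafts and 5.52 in NP islets. The part of kidney tissue in these differences was not tested. Kcnmb3, which encodes β3 and is the remaining β subunit gene, was 6.27 in P12.5 grafts and 6.75 in P12.5 islets (-0.48 ± 0.10, adjusted p = 0.00973), below 1.5-fold. Its pregnancy change was 0.27 ± 0.11 in male grafts (adjusted p = 0.197), -0.20 ± 0.11 in female grafts (adjusted p = 0.302) and -0.15 ± 0.11 in islets (adjusted p = 0.667). The Kcnmb3 levels of male grafts were 6.5, 6.6 and 6.4 at P12.5, against 6.2, 6.3 and 6.2 at NP, without overlap, and those of female grafts 6.3, 6.3 and 6.2 at P12.5, against 6.5, 6.6 and 6.3 at NP. The difference between the sexes in this change, 0.47 ± 0.15, did not pass the adjustment (adjusted p = 0.955).

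The genes whose levels followed Lrrc55 most closely were sought among 1119 genes with a standard deviation of at least 0.5 over the 20 arrays. Pearson's r over these arrays, which share the 2 states and the 6 groups, is a description and carries no test. The 5 highest were Chgb (r = 0.969), Neb (0.962), Prok1 (0.961), Sftpd (0.959) and Kirrel3os (0.958). Chgb encodes chromogranin B, a protein of secretory granules. It averaged 11.5 in male P12.5 grafts and 10.4 in male NP grafts, 11.6 and 10.5 in female P12.5 and NP grafts, and 11.6 and 10.4 in P12.5 and NP islets. Neb encodes nebulin, a giant protein of the muscle thin filament, Prok1 encodes the secreted peptide prokineticin 1, and Sftpd encodes surfactant protein D of the lung. Neb changed by 2.17 in male grafts, 1.70 in female grafts and 1.75 in islets. Prok1 changed by 1.70 in male grafts, 1.67 in female grafts and 1.45 in islets. Sftpd changed by 1.37 in male grafts, 1.53 in female grafts and 1.58 in islets. Kirrel3os, an RNA listed opposite to the gene Kirrel3, changed by 1.73 in male grafts, 1.20 in female grafts and 1.40 in islets. Each of the 5 was higher at P12.5 in all 3 kinds of sample, which follows largely from choosing them by r with Lrrc55. Their changes were smaller than those of Lrrc55. No other BK member had group means that spanned 1 log2 unit.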

How the data were processed

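Total RNA of 20 samples was hybridised to Affymetrix MoGene 1.0 ST arrays. The authors deposited log2 expression levels per probe set, which they obtained from the raw array files by robust multichip analysis (background correction, quantile normalization and a summary per probe set) with aroma.affymetrix in R. All deposited values are rounded to 1 decimal, so that differences under 0.1 on a single array are not resolved. For the array annotation, the genome build is not given in the sources used here. Of 35511 probe sets, 21789 carry 1 gene symbol, 1621 several and 12101 none, and 19938 genes were each read through the probe set with 1 symbol whose average over all arrays was highest.

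Differences were fitted with limma 3.58.1 (lmFit and eBayes) in R 4.3.3, with the group as the only term: 8 arrays for islets, 12 for comparisons among grafts, and all 20 for grafts against islets. P-values are two-sided and adjusted by Benjamini-Hochberg over all 35511 probe sets, and a call needs an adjusted p under 0.05 and a change of at least 1.5-fold. Changes are mean differences with limma's standard error, and the number of arrays limits their precision. Rounding left some probe sets without spread within groups, and limma offset their variance from 0. The fit was tested on simulated data. The replicate numbers in the labels were checked as pairs and did not pair the samples.

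The members and the gene lists were chosen with earlier results of these data known. Lists came from textbook knowledge, and the named genes were all 8 members, the channel genes called in islets or in grafts of both sexes, and the 5 genes most correlated with Lrrc55. Kcnj1, Kcnj15, Kcnj16, Kcnmb3, Slc30a8, Pyy, Mafa, G6pc2 and the second Kcnma1 probe set were added after their values were seen. Promoters are those of RefSeq on GRCm38.p6. Alternatives covered array scaling, a minimum level, an intensity trend, the arrays fitted, a replicate block, the fold minimum, the mean of all probe sets of a gene, kidney or endocrine markers as a covariate, and each array left out.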

Additional observations from a re-analysis of the deposited data

Results flagged for a closer look

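Among the groups of 4 islet arrays, 16 were tested for an array far from the others. The test is set to mark about 1 in 20 groups by chance, but this rate does not hold for rounded values. An array that differs by 1 rounding step from 3 equal ones is always marked. In 3 of the 16 groups 1 array differed by 0.1 from 3 equal ones, which is the step to which the deposited values are rounded. Lrrc55 was 5.6 in 1 NP islet array and 5.5 in the other 3. Kcnma1 was 8.4 in 1 P12.5 islet array and 8.3 in the other 3. Kcnma1 was also 8.4 in 1 NP islet array and 8.3 in the other 3.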

How the results depend on the processing

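The call of Lrrc55 held under every alternative of the 4 pregnancy comparisons, 16 each in male grafts (3.30 to 3.65), female grafts (3.54 to 3.97) and islets (2.88 to 3.01) and 22 with both donor sexes (3.51 to 3.73), with the highest adjusted p 0.00625 (islets, replicate block). Of 1604 alternative values over all results, 1539 kept direction and call, 56 reversed, and 0 lost a call. With no fold minimum, 1 member was called in female grafts against islets at P12.5 (Lrrc55, 0.58) and 1 at NP (Kcnma1, 0.24). With the second Kcnma1 probe set, a setting chosen after seeing the data, 2 members were called in male grafts. Leaving out 1 array gave 1 to 2 members called with both donor sexes (Kcnmb2 at -0.69 without male NP array 1) and 0 to 1 in female grafts against islets at P12.5 (Lrrc55 at 0.75 without female P12.5 array 3, with a range of 0.50 to 0.75).

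Kcnma1 reversed with the mean of its probe sets to 0.033 in female grafts, 0.28 in male grafts, 0.16 with both sexes, -0.029 in female grafts against islets at NP and 0.10 for the difference in pregnancy change. With its second probe set it reversed to 0.20, 0.70, 0.45, -0.30 and 0.33 for the same comparisons. The other reversals were of uncalled changes near 0. Subtracting array medians gave -0.067 for Kcnmb4 in male grafts, -0.017 for Lrrc38 with both sexes and -0.042 for Lrrc26 in the difference in pregnancy change between female grafts and islets. Renewed quantile normalization gave -0.038 for Kcnmb4 in male grafts, -0.0042 for Lrrc38 with both sexes, -0.022 for Lrrc26 in male against female grafts at P12.5, and 0.0425 for Lrrc52 and 0.026 for Kcnmb1 in female grafts against islets at P12.5. The kidney covariate gave 0.00034 for Kcnmb1 in male against female grafts at P12.5 and 0.13 in the interaction of sex and pregnancy. The endocrine covariate gave 0.00058 for Kcnmb1 and 0.10 for Kcnmb2 in male against female grafts at NP.

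Leaving out 1 array turned the sign of 15 uncalled changes. In islets the ranges were -0.042 to 0.067 for Lrrc52, -0.092 to 0.0083 for Lrrc38 and -0.10 to 0.042 for Kcnmb4. In male grafts they were -0.12 to 0.033 for Lrrc26 and -0.033 to 0.17 for Kcnmb4. In male against female grafts they were -0.017 to 0.10 for Lrrc26, -0.10 to 0.05 for Lrrc52 and -0.27 to 0.033 for Kcnmb1 at P12.5, and -0.13 to 0.017 for Lrrc26, -0.15 to 0.10 for Kcnmb1 and -0.28 to 0.12 for Kcnmb2 at NP. They were -0.23 to 0.067 for Kcnmb1 in the interaction of sex and pregnancy, -0.075 to 0.033 for Lrrc52 and -0.15 to 0.05 for Kcnmb1 in female grafts against islets at P12.5, and -0.083 to 0.10 for Lrrc26 in the difference in pregnancy change.

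Counts over all genes moved more. A replicate block, although samples with the same number did not pair (not every one correlated best with its own number), gave 52 genes instead of 151 in male grafts, 97 instead of 233 in female grafts and 120 instead of 199 in islets. Subtracting array medians gave 264 genes in male grafts, 44 of them up, against 61 of 151 up. The kidney covariate left 6 in female grafts and 244 of 375 with both sexes, and the endocrine covariate gave 358 in female grafts. Fitting all arrays gave 501 in male and 604 in female grafts, and 11 instead of 4 in male against female grafts at NP. Leaving out 1 array gave 20 to 98 genes in male grafts where the count moved by over 1.5 times, 18 to 89 in female grafts, 583 with both sexes without male NP array 1, 17 in male against female grafts at NP without male NP array 3, and 541 instead of 928 in female grafts against islets at P12.5 without female P12.5 array 3. No fold minimum gave 383 in islets, 2371 with both sexes, and 1515 at P12.5 and 5977 instead of 1730 at NP in female grafts against islets. For the difference in pregnancy change the count was 1 to 4 instead of 2 under other settings with all 20 arrays, 91 with 14 arrays, and 0 to 3 with 1 array left out (0 without P12.5 islet array 1 or 3, NP islet array 1, 2 or 3, or female P12.5 graft array 1 or 3). The cause of these shifts was not tested. Signal near background limits Lrrc26, Lrrc52, Lrrc38, Kcnmb1 and Kcnmb4, and Lrrc55 at NP.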
